A study of Homo sapiens with 6 samples.

Results

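The 10 genes described here are the transcriptional arm of the Hippo pathway, with some of its feedback genes, and the CCN family members CCN1 to CCN3. They are YAP1, WWTR1 (which encodes TAZ) and TEAD1, the feedback genes AMOTL2, AJUBA and LATS2, the secreted proteins CCN1, CCN2 and CCN3, and ANKRD1. They were chosen by gene symbol, and all 10 were found among the 61860 genes of the count table. RNA was sequenced from A498 cells, a human line from a kidney carcinoma, grown in MEM with fetal bovine serum. The PTPRZ_Si group (3 libraries) is labelled as a knockdown of PTPRZ1, a receptor protein tyrosine phosphatase, by siRNA, and the PTPRZ_nc group (3 libraries) is its control, whose label names a plasmid. The treatment field of both groups reads "transfection infection". PTPRZ_Si and the siRNA, and PTPRZ_nc and the plasmid, cannot be told apart. The labels do not say whether the libraries came from separate cultures, so p-values measure the spread between libraries, which may be technical.

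YAP and TAZ are co-activators that carry no DNA-binding domain of their own and reach their target genes through the TEAD transcription factors. The kinases LATS1 and LATS2 phosphorylate both co-activators, which keeps them in the cytoplasm or sends them to degradation. Several target genes encode inhibitors of YAP and TAZ and so close a feedback loop. AJUBA, by contrast, restrains the LATS kinases. The CCN proteins are matricellular: they are secreted, sit in the extracellular matrix and bind integrins and other receptors, and CCN1, CCN2 and ANKRD1 are widely used readouts of YAP activity. These counts measure RNA only, and neither the location nor the phosphorylation of YAP or TAZ was measured.

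Libraries held 13726908 to 21469746 counts in genes. PTPRZ1 had 0 counts in each of the 6 libraries, which allows up to 0.0527 CPM (counts-per-million of the summed library totals) over the PTPRZ_Si group and 0.0607 CPM over the PTPRZ_nc group, for counting error only. The knockdown could therefore not be checked by its target, and all directions rest on the labels. The 10 markers of a renal carcinoma line summed to between 3342 and 3485 CPM in PTPRZ_Si and between 3290 and 3358 CPM in PTPRZ_nc libraries, with NDUFA4L2 at 26 and EPCAM at 19 counts in all. Of the 8 that were tested 5 rose, among them PAX8 (556 CPM in PTPRZ_Si and 313 CPM in PTPRZ_nc libraries) and CDH6 (155 CPM in PTPRZ_Si and 74.0 CPM in PTPRZ_nc libraries). Calls in either direction covered 75.0% of the 8, against 27.4% of all tested genes and 40.3% of those whose mean reached 20 CPM. The rise of PAX2 was lost without PTPRZ_Si library 2 (edgeR adjusted p = 0.0863), without PTPRZ_Si library 3 (0.0552) and without both replicate 2 libraries (0.136). VIM fell, at 788 CPM in PTPRZ_Si and 1181 CPM in PTPRZ_nc libraries. PAX8, CDH6, PAX2 and VIM were named after their values were seen, and their part in the results below was not tested. The 5 fibroblast markers summed to at most 0.480 CPM in PTPRZ_Si and 0.365 CPM in PTPRZ_nc libraries, with LUM at 0. The 5 leukocyte markers summed to at most 0.374 CPM in PTPRZ_Si and 0.526 CPM in PTPRZ_nc libraries, with PTPRC and CD3E at 0. The 5 endothelial markers summed to between 1.59 and 2.02 CPM in PTPRZ_Si and between 1.12 and 1.17 CPM in PTPRZ_nc libraries, with CDH5 at 0. PECAM1, the only endothelial marker tested, averaged 1.36 CPM in PTPRZ_Si and 0.715 CPM in PTPRZ_nc libraries and did not pass (edgeR adjusted p = 0.0586). As in any bulk sample, fewer cells of a type and less RNA per cell cannot be told apart.

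All 10 genes passed the filter on low counts, and CPM of genes are TMM-scaled from here on. TEAD1 and CCN3 were higher in PTPRZ_Si than in PTPRZ_nc libraries, CCN1, CCN2, AJUBA and LATS2 were lower, and YAP1, WWTR1, AMOTL2 and ANKRD1 did not pass the test (edgeR quasi-likelihood test, p adjusted over 15476 genes, threshold 0.05). Thus 2 of 10 genes rose, against 14.0% of all tested genes, and 4 of 10 fell, against 13.4%. Calls in either direction covered 27.4% of all tested genes and 40.3% of the 7951 genes whose mean reached 20 CPM, as it did for each member but ANKRD1. For 6 of the 10 genes no PTPRZ_Si library reached the range of the PTPRZ_nc libraries, against 40.8% of all tested genes (20.8% above it and 20% below it), and these were the 6 genes that passed. The median log2 fold change was -0.14 over the 10 genes and 0.00 over all tested genes.

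**Figure D1:**
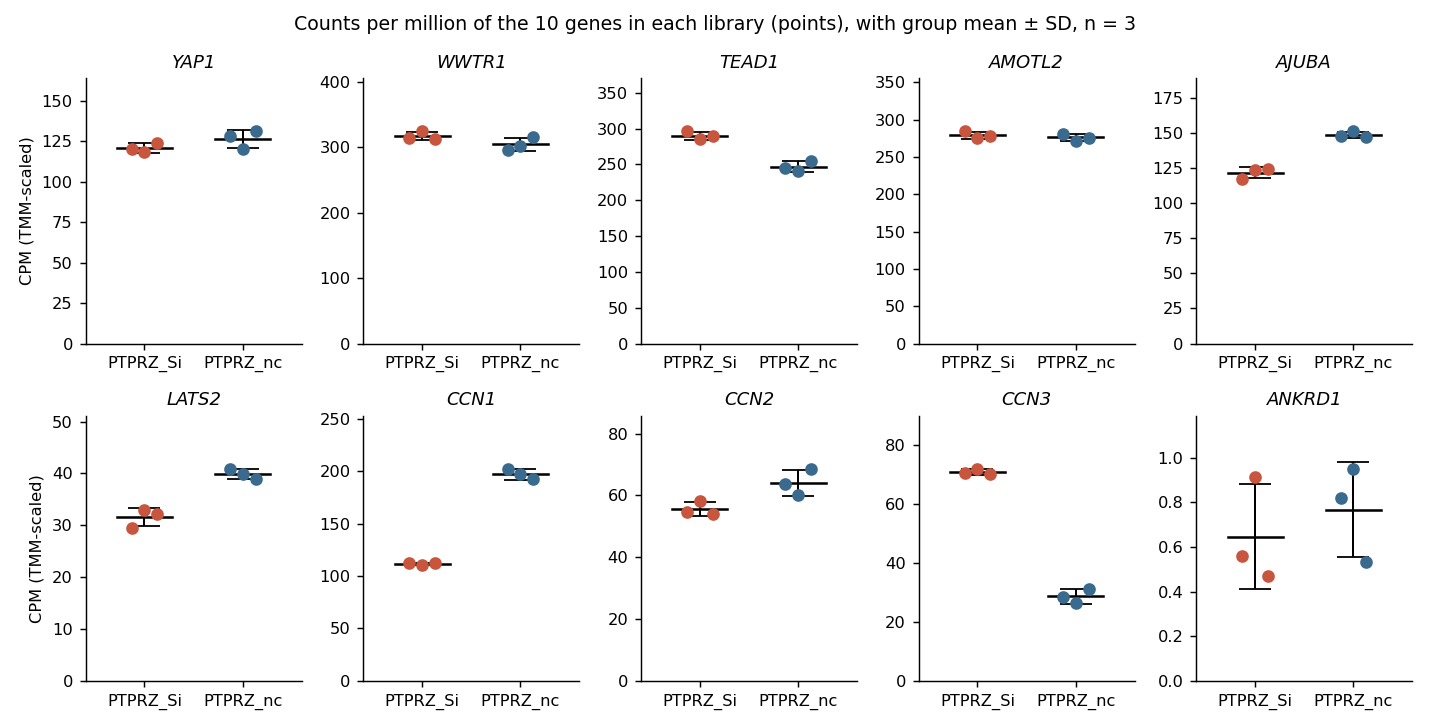
TMM-scaled CPM of each gene in the 3 PTPRZ_Si libraries (left in each panel) and the 3 PTPRZ_nc libraries (right), with the group mean (long line) and SD (whiskers), each panel on its own axis from 0. CCN1 and CCN3 separate most, at means of 112 and 70.9 CPM in PTPRZ_Si against 197 and 28.7 CPM in PTPRZ_nc libraries, while the points of YAP1, WWTR1, AMOTL2 and ANKRD1 overlap.

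The annotated promoters of the members were searched for the core letters of the TEAD motif, since TEAD factors are known to bind the promoters of several of these genes. RefSeq (GRCh38.p14) windows from 250 bases before to 50 bases after a transcript start were found for 7 members, with 10 windows in all; CCN1, CCN3 and TEAD1 have no entry in the table used. The motif GGAATG, on either strand, was present in 6 of the 10 windows, against 14.0% of 35116 windows of the same length. By gene, 6 of the 7 members (all except WWTR1) held it in at least 1 window. The members were chosen as genes of this pathway, so these shares are a description only. The 250 bases before the start are shown for CCN2 and ANKRD1 because these hold the most matches, 3 and 2, yet differ widely in level: CCN2 averaged 104 TPM (transcripts-per-million, scaled by exon length) in PTPRZ_Si and 121 TPM in PTPRZ_nc libraries, and ANKRD1 1.42 TPM in PTPRZ_Si and 1.70 TPM in PTPRZ_nc libraries. Capitals mark the matches, and both sequences run along the minus strand of the chromosome, at chr6:131951373-131951622 and chr10:90921088-90921337.
CCN2: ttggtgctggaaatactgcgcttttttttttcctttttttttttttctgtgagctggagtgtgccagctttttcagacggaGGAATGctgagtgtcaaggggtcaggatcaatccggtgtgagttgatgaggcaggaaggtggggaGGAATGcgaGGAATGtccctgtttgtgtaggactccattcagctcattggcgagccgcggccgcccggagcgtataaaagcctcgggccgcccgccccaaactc
ANKRD1: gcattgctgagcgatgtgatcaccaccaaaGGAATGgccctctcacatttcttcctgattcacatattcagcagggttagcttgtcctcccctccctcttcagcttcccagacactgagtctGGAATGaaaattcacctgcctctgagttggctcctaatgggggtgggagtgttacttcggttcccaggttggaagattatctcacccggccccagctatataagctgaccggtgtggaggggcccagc

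The CCN2 matches begin 169, 104 and 95 bases before the start, and those of ANKRD1 220 and 128 bases before it. The other matches are single, and each is shown with its flanks to set the genes that fell beside those that did not pass. LATS2 and AJUBA fell and carry the letters 10 bases after and 59 bases before a start, at chr13:21061560-21061589 and chr14:22976884-22976913, both on the minus strand. AMOTL2 and YAP1 did not pass and carry them 69 and 162 bases before a start, at chr3:134374499-134374528 on the minus strand and chr11:102110273-102110302 on the plus strand. The AMOTL2 match reads CATTCC, the reverse complement.
LATS2: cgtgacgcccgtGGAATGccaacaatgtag
AJUBA: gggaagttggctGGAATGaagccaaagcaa
AMOTL2: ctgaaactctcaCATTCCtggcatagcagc
YAP1: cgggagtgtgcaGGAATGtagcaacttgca

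Genes with a match thus include members that fell and members that did not pass. A match describes letters in a window and is not a bound site. AMOTL2 and AJUBA each have another window without one, which spans the upstream end of the gene as placed below. Their windows with a match lie inside the gene span, at a start further along it. The AP-1 motif TGANTCA was found only in the ANKRD1 window (7.71% of all windows hold it), the EGR1 motif GCGNGGGCG only in the YAP1 window, at 2 places (9.43%), and the CArG box of SRF in none (1.29%), each searched on both strands.

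**Figure D2:**
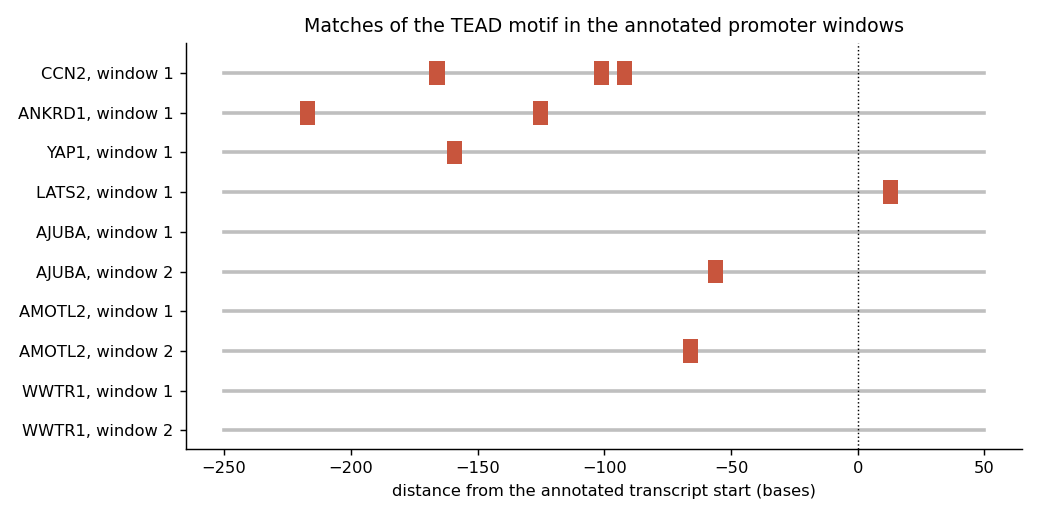
Position of each TEAD motif match (blocks) in the annotated promoter windows of 7 members, as distance in bases from the transcript start (dotted line). CCN2 has 3 matches and ANKRD1 has 2, while both WWTR1 windows and 1 window each of AJUBA and AMOTL2 have none.

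YAP1 (ENSG00000137693, GRCh38 chromosome 11 from 102110461 to 102233423, plus strand) encodes the co-activator after which the arm is named. It had 120.3, 118 and 124 CPM in PTPRZ_Si libraries 1, 2 and 3, against 128, 120.2 and 131 CPM in PTPRZ_nc libraries 1, 2 and 3. The groups overlap, and the means of 121 ± 2.88 CPM in PTPRZ_Si and 127 ± 5.65 CPM in PTPRZ_nc libraries (SD, n = 3 each) give a fitted log2 fold change (PTPRZ_Si over PTPRZ_nc) of -0.07, with SE 0.0485 and an edgeR adjusted p of 0.348. An interval of 2 standard errors to either side runs from -0.16 to 0.03. Of the YAP1 exon bases 9.97% overlap a gene on the opposite strand that had 0 counts in all.

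WWTR1 (ENSG00000018408, chromosome 3 from 149517235 to 149736714, minus strand) encodes TAZ, the paralog of YAP. It had 315, 324 and 312 CPM in PTPRZ_Si libraries, against 296, 301 and 315 CPM in PTPRZ_nc libraries. The control library 3 lay within the range of the PTPRZ_Si group, and the log2 fold change of 0.06 did not pass (SE 0.0405, interval of 2 standard errors from -0.02 to 0.14, edgeR adjusted p = 0.309). Of its exon bases 9.45% overlap WWTR1-AS1 on the opposite strand, which had 49 counts over the 6 libraries, and the counting used no strand. The log2 ratio of WWTR1 to YAP1 in CPM was 1.39 ± 0.0604 in PTPRZ_Si and 1.27 ± 0.0601 in PTPRZ_nc libraries (SD, n = 3 each), a difference of 0.12 (SE 0.0492). An exact 2-sided permutation test gave p = 0.1 for it, the smallest that 3 against 3 libraries allow. Scaled by exon length, TAZ transcripts made up 66.2% ± 0.935 of the summed YAP1 and WWTR1 TPM in PTPRZ_Si and 64.3% ± 0.957 in PTPRZ_nc libraries.

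TEAD1 (ENSG00000187079, chromosome 11 from 12674591 to 12944483, plus strand) encodes one of the DNA-binding partners of YAP and TAZ, and it rose. It had 296, 285 and 289.5 CPM in PTPRZ_Si libraries, against 245, 241 and 255 CPM in PTPRZ_nc libraries. Every PTPRZ_Si library lay above every PTPRZ_nc library, with a 1.17-fold difference (log2 fold change 0.23, SE 0.0408, edgeR adjusted p = 0.000402). In the fit 3220 tested genes, TEAD1 included, rose by as much or more. Of its paralogs, TEAD4 was also higher, at 17.4 ± 1.44 CPM in PTPRZ_Si and 13.75 ± 0.995 CPM in PTPRZ_nc libraries (SD, n = 3 each, log2 fold change 0.34, edgeR adjusted p = 0.0160). TEAD4 did not pass without PTPRZ_nc library 3 or without PTPRZ_Si library 3 (edgeR adjusted p = 0.0609 and 0.0979). TEAD3 at 0.18 did not pass (edgeR adjusted p = 0.217). TEAD1 held 44.8% ± 1.35 of the summed TPM of TEAD1 to TEAD4 in PTPRZ_Si and 43.2% ± 1.73 in PTPRZ_nc libraries, a shift within about the spread between libraries.

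AMOTL2 (ENSG00000114019, chromosome 3 from 134355874 to 134375479, minus strand) encodes a scaffold of the angiomotin family that binds YAP and holds it out of the nucleus. It had 284, 275 and 278 CPM in PTPRZ_Si libraries, against 281, 272 and 275 CPM in PTPRZ_nc libraries. The ranges nearly coincide, and the log2 fold change of 0.02 had the smallest standard error of the 10 genes (0.0392, interval of 2 standard errors from -0.06 to 0.09, edgeR adjusted p = 0.820). AMOT, its paralog, was higher at 34.1 ± 2.14 CPM in PTPRZ_Si, against 27.4 ± 1.86 CPM in PTPRZ_nc libraries (SD, n = 3 each, log2 fold change 0.32, edgeR adjusted p = 0.00532). AMOTL2 held 92.05% of the summed TPM of the 3 angiomotin genes in PTPRZ_Si and 93.4% in PTPRZ_nc libraries, and AMOTL1 had 27 counts in all.

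AJUBA (ENSG00000129474, chromosome 14 from 22971174 to 22982642, minus strand) encodes a LIM-domain protein that restrains the LATS kinases. It had 117, 124 and 124 CPM in PTPRZ_Si libraries, against 148, 151 and 147 CPM in PTPRZ_nc libraries. The groups stand apart, with the gene 1.22-fold lower in PTPRZ_Si (log2 fold change -0.29, SE 0.0454, edgeR adjusted p = 0.000155). In the fit 2268 tested genes, AJUBA included, fell by as much or more.

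LATS2 (ENSG00000150457, chromosome 13 from 20973032 to 21061547, minus strand) encodes a kinase that phosphorylates YAP and TAZ and is itself one of their targets. It had 29.6, 33.0 and 32.2 CPM in PTPRZ_Si libraries, against 40.9, 39.8 and 38.9 CPM in PTPRZ_nc libraries. No library of one group reached the other, and LATS2 was 1.26-fold lower in PTPRZ_Si (log2 fold change -0.33, SE 0.0687, edgeR adjusted p = 0.00158). LATS1, the other kinase, averaged 29.9 ± 1.26 CPM in PTPRZ_Si and 26.4 ± 2.33 CPM in PTPRZ_nc libraries (SD, n = 3 each) and did not pass (log2 fold change 0.17, edgeR adjusted p = 0.127). LATS2 held 62.0% ± 2.36 of the summed TPM of both kinases in PTPRZ_Si and 70.1% ± 1.88 in PTPRZ_nc libraries.

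**Figure D3:**
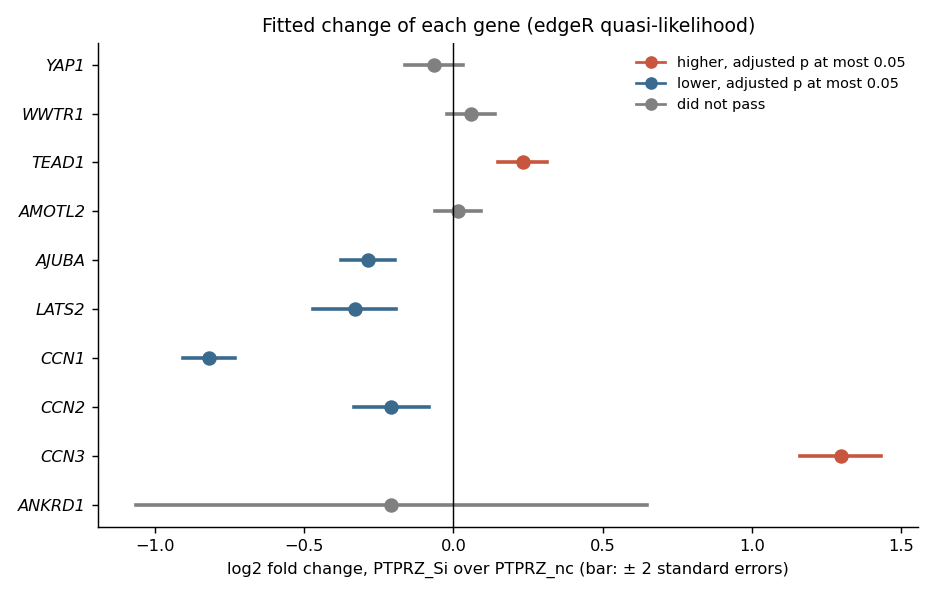
Log2 fold change of each gene, PTPRZ_Si over PTPRZ_nc, from the edgeR fit (points) with 2 standard errors to either side (bars), coloured by whether the gene was higher, lower or did not pass. CCN1 at -0.82 and CCN3 at 1.30 lie far from the other genes, and the bar of ANKRD1, from -1.07 to 0.65, is the widest.

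CCN1 (ENSG00000142871, chromosome 1 from 85580761 to 85583962, plus strand), a matrix-bound ligand of integrins and an early response gene, had the largest fall of the 10 genes. It had 112, 110.5 and 113 CPM in PTPRZ_Si libraries, against 202, 197 and 192 CPM in PTPRZ_nc libraries. The libraries of each group lay close together and the groups were far apart, with CCN1 1.76-fold lower in PTPRZ_Si (log2 fold change -0.82, SE 0.0439, edgeR adjusted p = 6.14e-10). In the fit, 238 tested genes, CCN1 included, fell by as much or more.

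CCN2 (ENSG00000118523, chromosome 6 from 131948176 to 131951373, minus strand), connective tissue growth factor, fell less. It had 54.7, 58.2 and 53.8 CPM in PTPRZ_Si libraries, against 63.6, 60.1 and 68.6 CPM in PTPRZ_nc libraries. The highest PTPRZ_Si library lay just below the lowest PTPRZ_nc library, and the difference was 1.15-fold (log2 fold change -0.21, SE 0.0624, edgeR adjusted p = 0.0195). CCN2 no longer passed without PTPRZ_nc library 3 (edgeR adjusted p = 0.0993), without PTPRZ_Si library 1 (0.0721) or without PTPRZ_Si library 3 (0.0940), and over all alternatives the edgeR, limma or DESeq2 adjusted p ran from 0.000738 to 0.0993. A total of 195 of its exon bases overlap a gene on the opposite strand that had 3 counts in all.

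CCN3 (ENSG00000136999, chromosome 8 from 119416306 to 119424353, plus strand), a family member that in many settings counteracts CCN2, rose. It had 70.5, 72.0 and 70.3 CPM in PTPRZ_Si libraries, against 28.6, 26.3 and 31.4 CPM in PTPRZ_nc libraries. The lowest PTPRZ_Si library lay far above the highest PTPRZ_nc library, and the fitted difference was 2.46-fold (log2 fold change 1.30, SE 0.0679, edgeR adjusted p = 4.95e-10). Only 73 tested genes, CCN3 included, rose by as much or more in the fit.

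The ratio of one CCN transcript to another was compared within each library, since CCN1 and CCN3 moved in opposite directions. The log2 ratio of CCN3 to CCN1 in CPM was -0.66 ± 0.0339 in PTPRZ_Si and -2.78 ± 0.149 in PTPRZ_nc libraries (SD, n = 3 each), a 4.36-fold difference in the ratio (2.12 on the log2 scale, SE 0.0882). That of CCN3 to CCN2 was 0.35 ± 0.0401 in PTPRZ_Si and -1.16 ± 0.0313 in PTPRZ_nc libraries, a difference of 1.51 (SE 0.0294). Per exon length, CCN3 lay above CCN2 in each PTPRZ_Si library and below it in each PTPRZ_nc library. The log2 ratio of CCN2 to CCN1 was -1.01 ± 0.0739 in PTPRZ_Si and -1.62 ± 0.120 in PTPRZ_nc libraries (difference 0.61, SE 0.0815). For none of these 3 ratios did the groups overlap. Each gave p = 0.1 in an exact 2-sided permutation test, as did WWTR1 to YAP1, and p = 0.1 after adjustment over the 4 ratios. No smaller p is possible with 3 against 3. For CCN3 to CCN1 and CCN3 to CCN2 this outcome was fixed by the changes already given. Every PTPRZ_Si library lay above every PTPRZ_nc library for CCN3, and below for CCN1 and CCN2. Their p therefore adds nothing to those changes.

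Per exon length, CCN1 made up 47.2% ± 0.873 of the summed TPM of CCN1 to CCN6 in PTPRZ_Si and 67.6% ± 1.93 in PTPRZ_nc libraries. CCN3 made up 27.5% ± 0.136 in PTPRZ_Si and 9.04% ± 0.683 in PTPRZ_nc libraries, and CCN2 24.6% ± 0.812 in PTPRZ_Si and 23.04% ± 1.28 in PTPRZ_nc libraries (SD, n = 3 each). The sum itself lay between 420.3 and 421 TPM in PTPRZ_Si and between 510 and 531 TPM in PTPRZ_nc libraries. CCN4, CCN5 and CCN6, the other family members, had 151, 98 and 22 counts over the 6 libraries. CCN4 and CCN5 did not pass, at log2 fold changes of 0.56 (SE 0.312) and 0.38 (SE 0.376), and CCN6 was not tested.

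**Figure D4:**
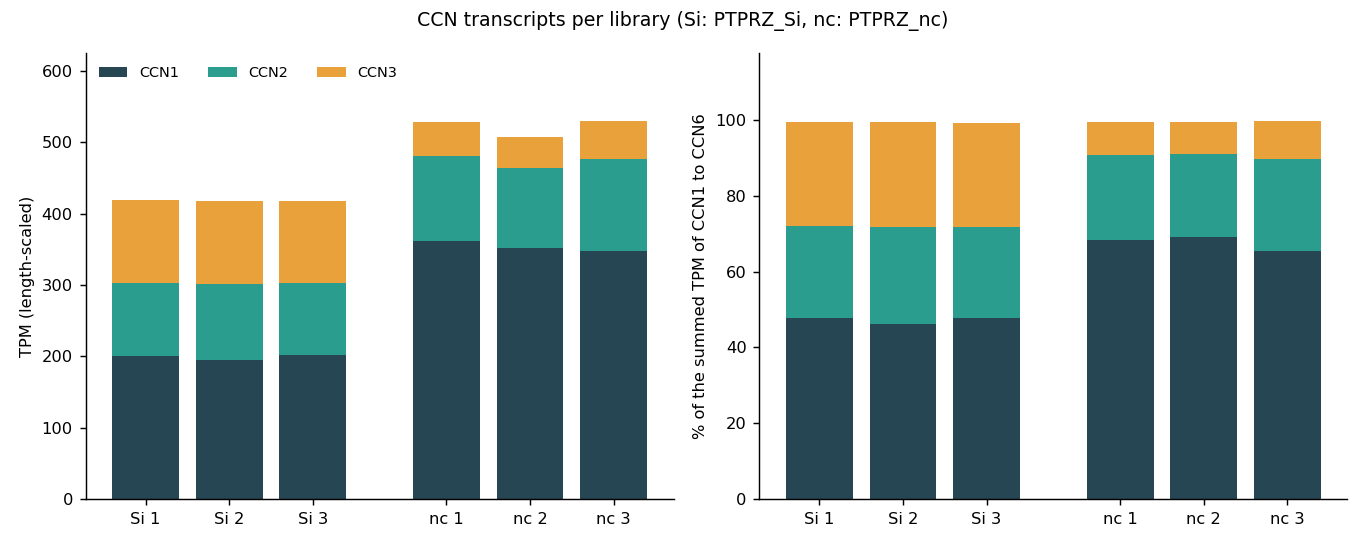
Left, length-scaled level (TPM) of CCN1, CCN2 and CCN3 stacked for each PTPRZ_Si library (Si 1 to 3) and each PTPRZ_nc library (nc 1 to 3). Right, the same as a percentage of the summed TPM of CCN1 to CCN6, in which CCN3 takes about 27.5% in PTPRZ_Si and 9.04% in PTPRZ_nc libraries and CCN2 takes 24.6% in PTPRZ_Si and 23.04% in PTPRZ_nc libraries.

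ANKRD1 (ENSG00000148677, chromosome 10 from 90912096 to 90921276, minus strand), an ankyrin repeat protein and a common YAP readout, was near the limit of detection. It had 8, 19 and 10 counts (0.558, 0.912 and 0.468 CPM) in PTPRZ_Si libraries, against 14, 13 and 10 counts (0.818, 0.950 and 0.533 CPM) in PTPRZ_nc libraries. The groups overlap widely, and the log2 fold change of -0.21 had a standard error of 0.428 (edgeR adjusted p = 0.769). With one library left out it ran from -0.57 without PTPRZ_Si library 2 to -0.0015 without PTPRZ_Si library 3, and did not pass in any of these. A change of the size seen for CCN1 lies within its interval of 2 standard errors, from -1.07 to 0.65, and was not detectable at this depth.

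Per exon length, the order of levels in PTPRZ_Si libraries was AMOTL2 (204 TPM), CCN1 (199 TPM), WWTR1 (164 TPM), TEAD1 (123 TPM), CCN3 (116 TPM), CCN2 (104 TPM), AJUBA (89.0 TPM), YAP1 (83.9 TPM), LATS2 (24.7 TPM) and ANKRD1 (1.42 TPM). Among neighbours in that order, the ranges over libraries overlapped for AMOTL2 and CCN1 and for AJUBA and YAP1. In PTPRZ_nc libraries the order was CCN1 (354 TPM), AMOTL2 (203 TPM), WWTR1 (159 TPM), CCN2 (121 TPM), AJUBA (109.5 TPM), TEAD1 (106 TPM), YAP1 (88.5 TPM), CCN3 (47.4 TPM), LATS2 (31.5 TPM) and ANKRD1 (1.70 TPM), and the ranges overlapped only for AJUBA and TEAD1. CCN1 thus stood behind AMOTL2 in the PTPRZ_Si order and at the head of the PTPRZ_nc order. CCN3 stood above CCN2, AJUBA and YAP1 in PTPRZ_Si and below all of these in PTPRZ_nc libraries.

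Targets of YAP and TEAD other than the members moved both ways. The members, this list and the lists below were chosen with earlier results of these data known. Their shares called are therefore a description only. Of 17 listed and tested genes 7 rose, 6 fell and 4 did not pass, so 76.5% were called, against 27.4% of all tested genes and 40.3% of those whose mean reached 20 CPM. The median log2 fold change was 0.10, against 0.00 over all tested genes, and fell to 0.05 without PTPRZ_nc library 3. The 4 with the smallest p all fell. IGFBP3, which binds insulin-like growth factors, averaged 1553 ± 15.7 CPM in PTPRZ_Si and 2494 ± 30.2 CPM in PTPRZ_nc libraries (SD, n = 3 each). AXL, a receptor tyrosine kinase, averaged 194 ± 7.39 CPM in PTPRZ_Si and 343 ± 1.93 CPM in PTPRZ_nc libraries. NT5E, the enzyme that makes adenosine from AMP, averaged 16.8 ± 0.858 CPM in PTPRZ_Si and 41.9 ± 0.323 CPM in PTPRZ_nc libraries. F3, tissue factor, averaged 8.997 ± 0.239 CPM in PTPRZ_Si and 20.5 ± 0.585 CPM in PTPRZ_nc libraries. The other genes that fell, named after their values were seen, were GADD45B (log2 fold change -0.79) and CCDC80 (-0.41). The 7 that rose, likewise named after their values were seen, had log2 fold changes of at most 0.39: FOXF2 (0.39), the ligand TGFB2 (0.31), the phosphatase PTPN14 (0.22), ARHGEF17 (0.20), CRIM1 (0.19), ASAP1 (0.19) and MYOF (0.10). Of these, MYOF did not pass when any library other than PTPRZ_nc 2 was left out (edgeR adjusted p = 0.0554 to 0.130), with a replicate block (0.0739) or with no filter on low counts (0.138). ASAP1 did not pass without PTPRZ_Si library 1 (edgeR adjusted p = 0.115), and ARHGEF17 without PTPRZ_nc library 3 (0.0696) or PTPRZ_Si library 3 (0.0995). DOCK5 at 0.14 and RBMS3 at -0.17 did not pass.

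Upstream of YAP, 4 of 19 kinases and scaffolds of the Hippo pathway rose, 3 fell and 12 did not pass. The 36.8% called lie between the 27.4% of all tested genes and the 40.3% of those whose mean reached 20 CPM. The median log2 fold change was 0.06, and 0.02, 0.02 and 0.03 without PTPRZ_Si library 1, PTPRZ_Si library 2 and PTPRZ_nc library 1. One of the falls, TAOK2 (-0.13, edgeR adjusted p = 0.0485), was lost in 11 of the 14 alternatives, among them the replicate block (0.0713) and DESeq2 (0.0529), and one of the rises, MAP4K3 (0.21), was lost without PTPRZ_Si library 1 (edgeR adjusted p = 0.0591). Both were named after their values were seen. WWC3, a scaffold that promotes LATS activity, averaged 92.5 ± 0.989 CPM in PTPRZ_Si and 60.5 ± 3.31 CPM in PTPRZ_nc libraries (SD, n = 3 each, edgeR adjusted p = 2.79e-07). MAP4K4, a kinase that can phosphorylate LATS, averaged 310.3 ± 5.17 CPM in PTPRZ_Si and 403 ± 7.49 CPM in PTPRZ_nc libraries (edgeR adjusted p = 1.10e-06), while its relative MAP4K5 rose, at 56.3 ± 0.292 CPM in PTPRZ_Si and 45.4 ± 2.86 CPM in PTPRZ_nc libraries. FRMD6, a FERM-domain scaffold, was lower at 19.8 ± 1.87 CPM in PTPRZ_Si and 28.1 ± 2.15 CPM in PTPRZ_nc libraries. MOB1B at 0.13, like LATS1, did not pass. Of 7 tested TEAD paralogs and YAP partners, AMOT and TEAD4 rose, 0 fell and 5 did not pass. The share called was 28.6%, against 27.4% of all tested genes and 40.3% of those whose mean reached 20 CPM. The median log2 fold change was 0.09, and ran from 0.02 without PTPRZ_nc library 2 to 0.22 without PTPRZ_nc library 1. VGLL1 and VGLL2 had 0 counts, VGLL3 had 1, and WTIP, at 1.30 CPM in PTPRZ_Si and 1.20 CPM in PTPRZ_nc libraries, did not pass.

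Several receptors of CCN proteins were lower. Of 13 tested genes in the list of other CCN genes and receptors 7 fell, 1 rose and 5 did not pass, with a median log2 fold change of -0.17. The share called was 61.5%, against 27.4% of all tested genes and 40.3% of those whose mean reached 20 CPM, and 2 rose where only genes with a mean of 5 CPM or more were tested. The integrin subunits ITGA5, ITGA6 and ITGB1 fell, with ITGA5 at 438 ± 11.2 CPM in PTPRZ_Si and 701 ± 28.03 CPM in PTPRZ_nc libraries (SD, n = 3 each, log2 fold change -0.68, edgeR adjusted p = 1.81e-09). ITGA6 fell by 0.52 and ITGB1 by 0.20 on the log2 scale. SDC4, a heparan sulfate proteoglycan, averaged 114 ± 5.57 CPM in PTPRZ_Si and 163 ± 9.95 CPM in PTPRZ_nc libraries (edgeR adjusted p = 1.45e-06). The gene that rose was ITGB3 (0.12), named after its value was seen, and it did not pass without PTPRZ_Si library 1 or 3 (edgeR adjusted p = 0.103 and 0.104). The fall of ITGB5 (-0.16), also named after its value was seen, was lost without PTPRZ_Si library 2 (edgeR adjusted p = 0.0622) and without both replicate 2 libraries (0.0582). ITGAM, an integrin of white blood cells, had 157 counts in all and did not pass.

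CCN1, CCN2 and ANKRD1 are also known as targets of SRF and of TGF-beta signalling, and CCN1 as an immediate early gene, so these lists are set beside them. Of 10 tested immediate early genes 5 fell, 0 rose and 5 did not pass. The share called was 50%, against 27.4% of all tested genes and 40.3% of those whose mean reached 20 CPM. The median log2 fold change was -0.30, and -0.52 without PTPRZ_nc library 2. Without both replicate 2 libraries 6 fell and 1 rose, with a median of -0.49. EGR1 averaged 0.822 ± 0.130 CPM in PTPRZ_Si and 12.7 ± 1.43 CPM in PTPRZ_nc libraries, and JUN 318 ± 10.4 CPM in PTPRZ_Si and 500.5 ± 37.1 CPM in PTPRZ_nc libraries (SD, n = 3 each). FOSL1 (-0.41) and IER2 (-0.45) also fell, and FOSB (-0.20) and EGR2 (-0.12) did not pass. Of 8 TGF-beta and SMAD targets 5 fell, 2 rose and 1 did not pass, with a median log2 fold change of -0.43. The share called was 87.5%, against 27.4% of all tested genes and 40.3% of those whose mean reached 20 CPM. TGFBI, a matrix protein, averaged 835 ± 13.5 CPM in PTPRZ_Si and 1224 ± 14.7 CPM in PTPRZ_nc libraries (SD, n = 3 each). PMEPA1 (-0.40) and LTBP2 (-0.45) fell, and SMAD7, an inhibitor of the pathway, did not pass (-0.10).

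Of 13 tested SRF and MRTF factors and targets 5 fell, 3 rose and 5 did not pass. The share called was 61.5%, against 27.4% of all tested genes and 40.3% of those whose mean reached 20 CPM. Without PTPRZ_nc library 2, 8 fell, and without PTPRZ_Si library 2 or 3, 4 fell. The median log2 fold change was -0.17, and -0.05 where only genes with a mean of 5 CPM or more were tested. The fall of CNN2 (-0.17), named after its value was seen, was lost without PTPRZ_Si library 2 or 3 or PTPRZ_nc library 1 or 3 (edgeR adjusted p = 0.0566 to 0.111). FLNA, filamin A, averaged 2968 ± 51.4 CPM in PTPRZ_Si and 3847 ± 59.8 CPM in PTPRZ_nc libraries, and ACTB, beta-actin, whose many processed pseudogenes make its count uncertain, 3321 ± 26.6 CPM in PTPRZ_Si and 4110.4 ± 79.1 CPM in PTPRZ_nc libraries (SD, n = 3 each). TPM1, a tropomyosin, fell by 0.17 on the log2 scale. FHL2, a LIM-domain cofactor, rose, at 421 ± 10.9 CPM in PTPRZ_Si and 288 ± 16.6 CPM in PTPRZ_nc libraries (log2 fold change 0.55, edgeR adjusted p = 1.08e-07). TAGLN (-0.68) and ACTA2 (-0.56), with 284 and 393 counts in all, did not pass. The part of these genes in the change of CCN1 or CCN2 was not tested.

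**Figure D5:**
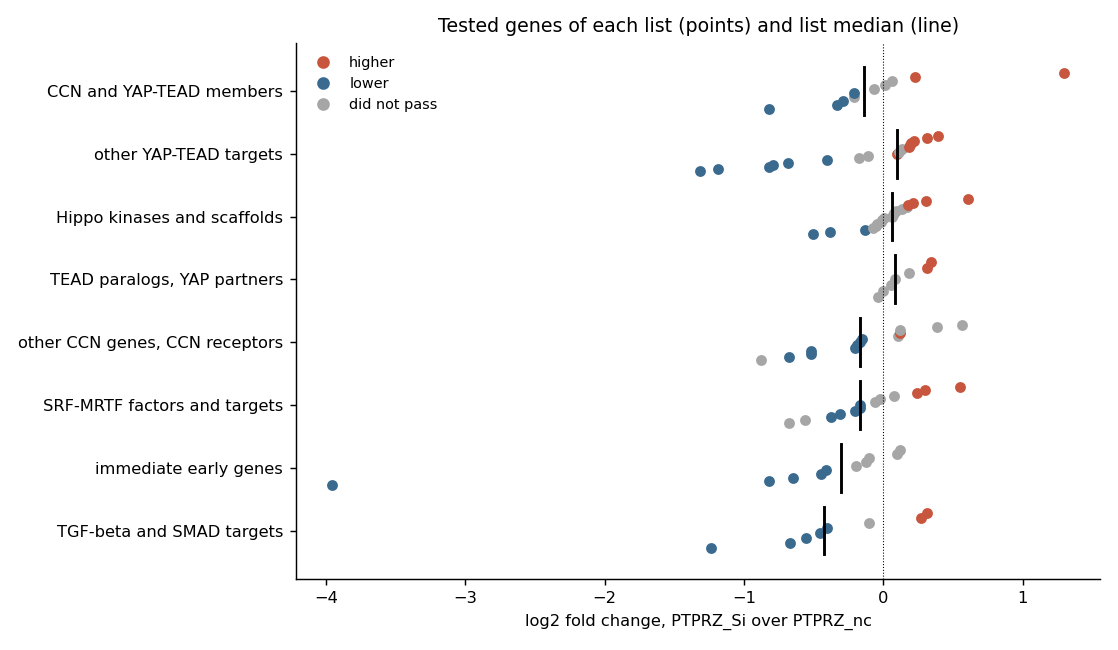
Log2 fold change, PTPRZ_Si over PTPRZ_nc, of each tested gene in each list (points, coloured by call) with the list median (vertical line). The members and the other YAP-TEAD targets spread to both sides of 0, with medians of -0.14 and 0.10, and EGR1 is the point near -3.96.

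The genes whose centred log2 CPM over the 6 libraries lay nearest to a member, by Euclidean distance among 7949 genes with a symbol and a mean of 20 CPM or more, were taken for CCN1 and CCN3. For CCN1 they were AXL (distance 0.0859), ERO1A, an oxidase of the endoplasmic reticulum (0.0956), and APOL1 (0.1002). For CCN3 they were GDA, guanine deaminase (0.199), the transcription factor MAF (0.214) and the antisense RNA IGFL2-AS1 (0.241), whose counts may hold reads of the other strand. Their log2 fold changes were -0.82, -0.88 and -0.77 beside -0.82 for CCN1, and 1.21, 1.16 and 1.13 beside 1.30 for CCN3. This likeness rests on 2 groups of 3 libraries and is a description only.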

How the data were processed

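The authors deposited one table of raw counts, 1 column per library. Per the file headers, featureCounts 2.0.1 assigned paired reads to exons of an Ensembl annotation of GRCh38 with no strand option set, although the library kit named in the labels keeps strand. The submitters' processing notes name hg38. The BAM names in the file headers hold the word hisat, with no version. Symbols came from a gene name table, and positions and exon lengths (for TPM, over genes with 99.9% of the counts) from GENCODE 29.

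Counts were filtered with filterByExpr, scaled by TMM and tested with glmQLFit and glmQLFTest in edgeR 4.0.16 (R 4.3.3), 2-sided, with Benjamini-Hochberg adjustment over 15476 genes. limma 3.58.1 (voom) and DESeq2 1.42.0 were alternatives, beside other scalings and filters, a replicate block and left-out libraries. The standard error of a fitted log2 fold change is its absolute value over the square root of the F statistic of the edgeR test. Zero counts were given a limit of 3 counts. The fit was tested on simulated data. Libraries of one group differed beyond sampling noise (chi-square over its degrees of freedom 2.19 to 6.23). Pairs with PTPRZ_nc library 2 gave 5.25 and 6.23, against 2.67 for PTPRZ_nc libraries 1 and 3 and 2.19 to 3.47 within PTPRZ_Si. The estimated variation beyond counting was 5.53%.

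Named genes were the members, PTPRZ1, the 4 called genes with the smallest p and up to 2 uncalled genes with the largest change in each list, and the 3 nearest genes to CCN1 and CCN3; 1 gene that this rule names is not reported here. The members and lists were chosen with earlier results of these data known.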

Additional observations from a re-analysis of the deposited data

How the results depend on the processing

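Under 14 alternatives (other scalings, filters and tests, a replicate block, each library left out, both replicate 2 libraries left out), CCN1, CCN3, TEAD1, AJUBA and LATS2 kept their direction and passed in every one, with log2 fold changes from -0.84 to -0.80, 1.23 to 1.36, 0.21 to 0.25, -0.30 to -0.26 and -0.37 to -0.29. CCN2 ran from -0.29 to -0.16 and failed in 3 of the 14, each with 1 library left out. YAP1 and WWTR1 did not pass in any, and AMOTL2 changed sign without PTPRZ_Si replicate 1 (-0.0003; range over left-out libraries -0.0003 to 0.0273). With one library left out, 2 members rose and 3 or 4 fell, 3182 to 4425 genes were called in all, and the TEAD paralogs and YAP partners had 1 to 2 calls. The 4 ratios kept their sign in the 8 alternatives run for each, and CPM without TMM factors moved no member level by more than 1 SD.

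Same-numbered libraries did not deviate together (correlations of deviations 0.0276, 0.0660 and -0.0371 for numbers 1, 2 and 3). No pairing by number was thus seen, but this check cannot exclude one. With a replicate block 4101 genes were called against 4243, and 2 members rose and 4 fell as without it. ANKRD1, with 8 to 19 counts per library, is limited by depth.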
